A study of Mus musculus with 10 samples.

Results

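The collagen genes of mouse embryonic stem cells were described from 2 peak lists, 1 of histone H3 trimethylated at lysine 4 (H3K4me3) and 1 of open chromatin, mapped by ATAC-seq through the insertion of adapters by the Tn5 transposase. Members were the protein-coding genes of chromosomes 1 to 19 in GENCODE M21 (mm10) whose symbol reads Col, digits, a, digits. This gave 42 of 20807 genes, on 14 chromosomes, namely 4 type IV genes, 11 fibrillar genes and 27 genes of other collagen types. The genes of chromosome X lie outside this rule.

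The study developed a method to find chromatin interactions in PLAC-seq and HiChIP data, and the ChIP-seq and ATAC-seq libraries of the same cells give the positions of marked promoters and open chromatin. The cells were F123, a stem cell line from an F1 cross of Mus musculus castaneus and S129/SvJae mice, for which the labels give no genetic change or drug treatment. The medium held LIF and serum replacement. Irradiated fibroblasts of CF1 embryos served as feeder cells up to the last passage, which was made on gelatin without them. H3K4me3 ChIP-seq used 2000000 fixed cells and ATAC-seq 100000 cells per sample, with 2 biological replicates each, and 4 of the 10 samples of the series enter here. Every sample came from 1 cell line, so no condition was compared with another. Each list stands for both replicates of its assay, so that no value below has a spread between replicates and no test over samples was possible. The lists hold no read counts, and the depth of the libraries is unknown.

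Collagens are extracellular proteins whose α chains wind around each other into a rope-like helix. Fibrillar collagens assemble into the fibrils of skin, bone, cartilage and vessel walls, type IV collagens form the mesh of basement membranes, and the remaining types coat fibrils, anchor membranes or span the cell membrane. The type IV genes sit in head-to-head pairs that are transcribed in opposite directions from a common promoter region, an arrangement known for a long time. H3K4me3 marks the nucleosomes around the starts of genes, above all at promoters rich in CpG dinucleotides, and in stem cells also the starts of many developmental genes that are silent or weakly transcribed. Basement membrane is the first matrix that the early embryo makes, whereas fibrillar collagen is chiefly a product of mesenchymal cells such as fibroblasts.

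The promoters below show the range of base composition among the members, and the results return to them. They are RefSeq sequences (GRCm38.p6, the build of both lists), written 5′ to 3′ in the direction of the named gene, from 250 bases before its start to 30 bases after it, with every CpG in capitals. The Col4a1 promoter holds the start of Col4a2 on the opposite strand, and the Col4a4 promoter that of Col4a3. Col5a1 is a fibrillar gene with a CpG-rich start, while Col6a3 and Col10a1 had no peak of either kind near their start.
Col4a1 (chr8:11312797-11313076, - strand): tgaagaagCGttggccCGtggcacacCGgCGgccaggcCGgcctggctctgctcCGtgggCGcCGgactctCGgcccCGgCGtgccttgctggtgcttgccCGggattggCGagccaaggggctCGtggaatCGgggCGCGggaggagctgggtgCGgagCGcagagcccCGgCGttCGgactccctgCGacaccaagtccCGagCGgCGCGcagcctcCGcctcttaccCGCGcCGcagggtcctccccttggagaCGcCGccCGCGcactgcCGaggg
Col4a4 (chr1:82586820-82587099, - strand): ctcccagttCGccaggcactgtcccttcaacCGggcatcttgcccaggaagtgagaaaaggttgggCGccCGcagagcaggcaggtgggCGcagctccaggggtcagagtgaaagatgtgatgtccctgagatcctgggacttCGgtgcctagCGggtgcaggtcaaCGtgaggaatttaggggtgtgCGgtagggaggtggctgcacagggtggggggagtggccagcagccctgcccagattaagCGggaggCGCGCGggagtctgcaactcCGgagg
Col5a1 (chr2:27886175-27886454, + strand): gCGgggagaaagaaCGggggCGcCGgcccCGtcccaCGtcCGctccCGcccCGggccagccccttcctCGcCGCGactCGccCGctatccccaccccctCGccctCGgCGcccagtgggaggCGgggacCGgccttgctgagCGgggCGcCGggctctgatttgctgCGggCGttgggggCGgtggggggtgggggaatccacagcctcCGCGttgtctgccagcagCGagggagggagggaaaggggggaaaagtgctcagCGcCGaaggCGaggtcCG
Col6a3 (chr1:90843942-90844221, - strand): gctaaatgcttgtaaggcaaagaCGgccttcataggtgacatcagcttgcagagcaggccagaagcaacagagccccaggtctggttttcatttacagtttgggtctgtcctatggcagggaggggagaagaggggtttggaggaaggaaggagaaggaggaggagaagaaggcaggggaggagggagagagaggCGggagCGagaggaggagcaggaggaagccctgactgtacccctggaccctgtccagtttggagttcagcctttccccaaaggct
Col10a1 (chr10:34389731-34390010, + strand): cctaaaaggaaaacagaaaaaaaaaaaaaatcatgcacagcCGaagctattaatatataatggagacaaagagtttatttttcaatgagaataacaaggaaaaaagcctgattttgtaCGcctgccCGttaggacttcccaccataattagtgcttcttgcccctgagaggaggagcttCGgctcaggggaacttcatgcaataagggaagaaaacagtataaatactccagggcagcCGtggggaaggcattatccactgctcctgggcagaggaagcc
The 280 bases held 36 CpGs at Col4a1, 14 at Col4a4, 32 at Col5a1, 3 at Col6a3 and 5 at Col10a1. Their GC content was 74.6%, 63.9%, 75.0%, 56.4% and 43.2% in the same order, so that Col6a3 had few CpGs without being poor in G and C.

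Most collagen genes were marked and open at their start in these cells. An H3K4me3 peak within 2 Kb of the start was found at 31 of the 42 members, where 67.7% of all coding genes had one, and an ATAC-seq peak at 35, where 75.9% of all coding genes had one. Both kinds of peak were present at 31 members, against 67.2% of all coding genes, and neither kind at 7, against 23.6%. In percent, 73.8% of the members were marked, with a 95% Wilson interval of 58.9% to 84.7%, and 83.3% were open, with an interval of 69.4% to 91.7%. These intervals cover counting error only, and the shares of all coding genes lie within them. Every marked member also had an ATAC-seq peak, as had 99.25% of all marked coding genes.

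By class, all 4 type IV genes were marked and open. Of the 11 fibrillar genes, 10 were marked and all 11 were open. The other types had H3K4me3 at 17 and ATAC-seq peaks at 20 of 27 genes. Among them the fibril-associated types (FACIT) had H3K4me3 at 7 of 9 genes and the type VI genes, which form beaded filaments, at 2 of 6. The transmembrane types were marked at 2 of 4 genes, the network-forming types VIII and X at 2 of 3, and both multiplexins, Col15a1 and Col18a1, were marked. Of the transmembrane genes counted as unmarked, Col25a1 is marked at a coding start inside its gene record. With 1 to 11 genes in a class the intervals are wide and overlap each other. They run from 51.0% to 100.0% for type IV and from 62.3% to 98.4% for the fibrillar genes. For the other types the interval is 44.2% to 78.5%. Each type IV pair shares its start peaks, so the type IV interval counts shared peaks as separate and is too narrow.

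A start peak was usually weaker at a collagen gene than at other coding genes. The strength used here is the fold enrichment that the peak caller gave each H3K4me3 peak over its background, taken from the strongest peak within 2 Kb of a start. Over the 31 marked members its median was 14.33 (2.498 to 38.95), against 30.88 over the 14079 marked coding genes. Only Col18a1 and Col23a1, that is 2 members, lay above that median, and 23 of 31 (74.2%) lay below 20.38, the first quartile of all marked coding genes. The medians of the classes were 21.09 for type IV, 13.43 for the fibrillar genes and 14.81 for the other types. The type IV value is only the midpoint of 2 distinct peaks, at 29.03 and 13.14, and the latter lies below the fibrillar median. The 31 genes share 29 distinct peaks, since each type IV pair has 1 in common, and they are therefore not fully independent.

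As a whole, the peaks were less unusual in width than in strength, but those of the other types were not. The strongest start peaks of the members had a median width of 1969 bp, against 2164 bp in all marked coding genes. The median percentile of the members among marked coding genes was 14.93 for fold enrichment and 41.42 for width. The class medians for fold enrichment and width were 29.06 and 44.81 in type IV and 13.57 and 63.64 in the fibrillar genes. In the other types they were 15.8 and 15.0, so those peaks were as unusual in width as in strength. Fibrillar peaks had a median width of 2502 bp, type IV peaks of 2092 bp and those of the other types of 1314 bp. The type IV medians are midpoints between 2 distinct peaks, of 1189 and 2996 bp. The 2 start peaks of the type VI genes were both narrow and low, at 623 and 1097 bp.

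**Figure D1:**
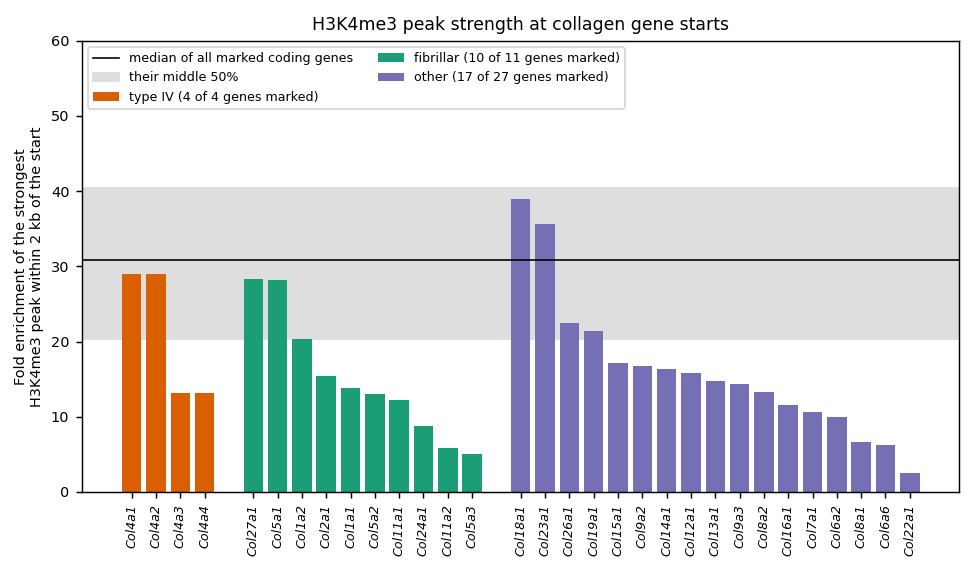
Fold enrichment of the strongest H3K4me3 peak within 2 Kb of the start, 1 bar for each of the 31 marked collagen genes, grouped by class. The line is the median of all marked coding genes (30.88) and the band their middle 50% (20.38 to 40.4). Only Col18a1 and Col23a1 rise above the line, and each type IV pair shares 1 peak and so 1 height.

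The type IV genes form the α chains of basement membranes. Col4a1 and Col4a2 encode the chains found in nearly all basement membranes, including those of the early embryo. Their annotated genes face away from each other on chromosome 8 and overlap by 22 bp at their starts (Col4a1 at 11312826 on the minus strand, Col4a2 at 11312805 on the plus strand). A single H3K4me3 peak covered both starts, from 11311228 to 11314223, 2996 bp wide. Its fold enrichment was 29.03 and its −log10 q 395.4. It reached 1598 bp into Col4a1 and 1418 bp into Col4a2. A single ATAC-seq peak of 1490 bp, from 11312206 to 11313695, lay within it and was wider than 99.2% of the list.

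Col4a3 and Col4a4 encode chains of more specialized basement membranes such as that of the kidney glomerulus. On chromosome 1 their starts (Col4a3 at 82586921 on the plus strand, Col4a4 at 82586849 on the minus strand) are separated by 71 bp. They too shared 1 H3K4me3 peak, from 82586301 to 82587489, but it measured 1189 bp. The fold enrichment was 13.14 and the −log10 q 80.8. The shared ATAC-seq peak, from 82586552 to 82587598, measured 1047 bp. The Col4a1/Col4a2 peak was thus the wider and the stronger of the pairs on every scale in the list, although without replicate values this difference has no error. The CpG counts within 500 bp of the start were 97 at both genes of the first pair and 42 at both genes of the second.

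Both pairs belong to the 2579 coding genes with a head-to-head neighbor whose start lies within 2 Kb. Of these, 2489 were marked, and their strongest peaks had a median fold enrichment of 35.54 and a median width of 2574 bp. Both collagen pairs were weaker than that median, and the Col4a1/Col4a2 peak was wider. No other member had the start of another coding gene within 2 Kb. The other starts that near were of records not annotated as coding, at 6 members such as Col15a1 and Col16a1, where they were antisense.

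The fibrillar genes were marked at every start but that of Col3a1. Col27a1, a fibrillar gene of developing cartilage, had the strongest peak of the class (fold enrichment 28.27, 3362 bp). Col5a1, whose chain regulates the diameter of type I fibrils, followed with 28.14 over 2539 bp, and its partner Col5a2 had 12.98 over 2444 bp. The type I genes Col1a1 and Col1a2, which build the bulk of skin, tendon and bone collagen, had fold enrichments of 13.89 and 20.36 over 2464 and 2553 bp. Although products of these genes assemble into common molecules, their peaks were not of like strength.

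Among the cartilage collagens, Col2a1 had the widest start peak of all members. It measured 5148 bp, wider than that of 97.4% of marked coding genes, with a fold enrichment of only 15.45, and ran from −1126 to 4021 bp of the start. Col11a1, whose chain is built into the same fibrils as that of Col2a1, had a peak of 2604 bp and a fold enrichment of 12.28, and Col11a2 one of 1107 bp and 5.80. Col24a1, a minor fibrillar gene, had a fold enrichment of 8.80 over 1489 bp. Col5a3 had the weakest start peak of the class, with a width of 755 bp and an enrichment of 5.08 fold. A second, smaller peak of Col5a3 began 1881 bp into the gene and so lay just inside the window.

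Col3a1, the fibrillar collagen of vessel walls and other distensible tissues, was open but not marked by this window. Its ATAC-seq peak lay 1431 to 1683 bp into the gene. A weak H3K4me3 peak (45313717 to 45314130 on chromosome 1, fold enrichment 3.21) began 2179 bp into the gene, just outside the window, and was counted as a peak of the body. Its start had a CpG ratio of 0.178, the lowest of the fibrillar genes.

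The reach of the fibrillar peaks to either side of the start was compared with that of other genes. Where the strongest peak covered the start, as at 10 fibrillar genes, it reached a median of 400.5 bp upstream and 2030 bp into the gene, and further into the gene than upstream at 8 of 10. Over all coding genes the medians were 712 bp upstream and 1400 bp downstream, with the longer reach into the gene at 83.6%. The other collagen types had it at 12 of 15 genes, so the fibrillar count was close to the rest. Summits lay on both sides of the start. At Col2a1, Col5a3, Col11a1 and Col11a2 they were upstream, from −613 to −10 bp, and at the other 6 genes they lay 411 bp (Col5a1) to 1738 bp (Col27a1) into the gene. ATAC-seq peaks in the window were counted as well, wherever in it they lay. More than 1 ATAC-seq peak was found within 2 Kb at 7 of 11 fibrillar genes and at 10 of the 20 open genes of other types, against 37.5% of all open coding genes, while each type IV gene had 1. Col1a2 had 4 such peaks and Col2a1 and Col11a2 had 3 each.

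Of the other types, Col18a1 had the strongest start peak of all members, at 38.95 fold over 3463 bp and a −log10 q of 486.3. It encodes a basement membrane proteoglycan from whose end the fragment endostatin is released. Col23a1, a transmembrane collagen, followed with 35.60 over 1585 bp, and Col26a1, a collagen first found in testis and ovary, with 22.47 over 2319 bp. The weakest peaks were those of Col22a1, Col6a6 and Col8a1. Col22a1, a collagen of the junction between muscle and tendon, had a peak of 299 bp at 2.498 fold, with a −log10 q of 5.30. It was weaker than nearly all marked coding genes (percentile 0.156). The Col6a6 peak had a fold enrichment of 6.25 over 623 bp, and that of Col8a1, a collagen of vascular and corneal matrix, 6.60 over 1314 bp. The remaining 11 marked genes of these types lay between 9.99 at Col6a2 and 21.3 at Col19a1, a collagen of the fibril-associated type.

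The 11 members without H3K4me3 in the window fell into genes with open chromatin and genes without. Col3a1, Col6a1, Col6a5 and Col20a1 had ATAC-seq peaks only. At Col6a1, which encodes a chain of the microfibrils around many cells, 1 of the 2 peaks, 303 bp wide, covered the start, and at Col6a5 and Col20a1 the only peak was 370 and 229 bp wide. Col6a2, which encodes a partner chain of Col6a1, was marked with a fold enrichment of 9.99. The 7 members with neither kind of peak were Col6a3, Col6a4, Col9a1, Col10a1, Col17a1, Col25a1 and Col28a1. They include genes known from specialized cells, such as Col10a1 of hypertrophic cartilage and Col17a1 of the hemidesmosomes of skin. Col25a1 was counted from a noncoding start, and its coding start had both kinds of peak. Col9a1 was unmarked although Col9a2 and Col9a3, which encode the partner chains of type IX collagen in cartilage, had start peaks with fold enrichments of 16.8 and 14.3.

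Peaks were also counted in the gene bodies, that is from start to end of each gene outside the 2 Kb window. Peaks at other starts inside a body, of the same gene or of another, were not left out. H3K4me3 body peaks numbered 31 and fell in 19 of 42 members, where 27.9% of all coding genes had one. Collagen genes are long, with a median of 110.9 Kb against 17.63 Kb in all coding genes. Per 100 Kb of body the members held 0.6515 H3K4me3 peaks, against 1.207 in all coding genes, so that the share of genes and the density point in opposite directions. Most of the 31 were weak, with a median fold enrichment of 3.747 and a median width of 492 bp. Exons of coding transcripts of the gene, including their untranslated parts, were overlapped by 17. Of the 31 peaks, 20 overlapped an ATAC-seq peak and 3 lay within 1 Kb of a start of a coding transcript of the same gene.

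A few body peaks were as strong as peaks at starts. The strongest lay in Col25a1, a transmembrane collagen of neurons, from 130179942 to 130181877 on chromosome 3, with a fold enrichment of 24.5. The start of its coding transcript, at 130180891, lies under this peak, while the gene record begins with a noncoding transcript 48441 bp upstream of the peak. Counted from coding transcripts, Col25a1 is therefore a marked and open gene. Col8a2, which forms the hexagonal lattice of the corneal endothelium, had 4 body peaks. The strongest of them, 1780 bp wide and enriched 21.4 fold, lay next to a second coding start at 126300530 on chromosome 4 and exceeded the peak at the gene's own start (13.3). Col9a2 had a body peak with a fold enrichment of 11.1, against 16.8 at its start.

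Col13a1, a transmembrane collagen of the neuromuscular junction, had 3 body peaks of 4.44 to 8.78 fold enrichment, 41534 to 63018 bp from its start. Col26a1 had 5, all at or below 4.67, and Col2a1 had 3, of which the nearest began 4375 bp into the gene. The single body peak of Col17a1 had a fold enrichment of 6.65. Single body peaks of 2.71 to 4.59 lay in Col4a1, Col4a2 and Col4a3, and Col4a4 had none. The Col4a1 body peak, with 3.57, covered the start of a coding transcript of the gene at 11279656 on chromosome 8. The body peaks of Col6a2, Col6a4, Col6a5, Col6a6, Col14a1, Col15a1, Col23a1 and Col28a1 had fold enrichments between 2.18 and 3.72. Those of Col6a4 and Col6a5 were among the weakest of the whole list, at percentiles of 0.376 to 2.32, with −log10 q values between 2.12 and 3.07.

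ATAC-seq peaks in the bodies numbered 263, in 38 of 42 members, where 63.1% of all coding genes had one. Per 100 Kb of body this came to 5.527, against 7.81 in all coding genes and 7.023 over the autosomes as a whole. The autosome value includes peaks at all gene starts. The body values leave out peaks at a gene's own annotated start, but not those at other starts inside it. By class the body density was 5.228 in type IV, 4.005 in the fibrillar genes and 6.059 in the other types. Of the 263 peaks, 49 overlapped an exon of a coding transcript and 7 lay within 1 Kb of a coding transcript start of the gene. The most were in Col18a1 (26 peaks, 23.1 per 100 Kb), Col26a1 (24, 17.2 per 100 Kb) and Col4a2 (14, 10.4 per 100 Kb). Col25a1, the longest member with 468377 bp, had 13 but only 2.79 per 100 Kb. The members of the type IV pairs were unequal here, with 14 peaks in Col4a2 against 7 in Col4a1 and with 2 in Col4a3 against 4 in Col4a4. Col1a2, Col6a1, Col6a2 and Col10a1 had none.

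**Figure D2:**
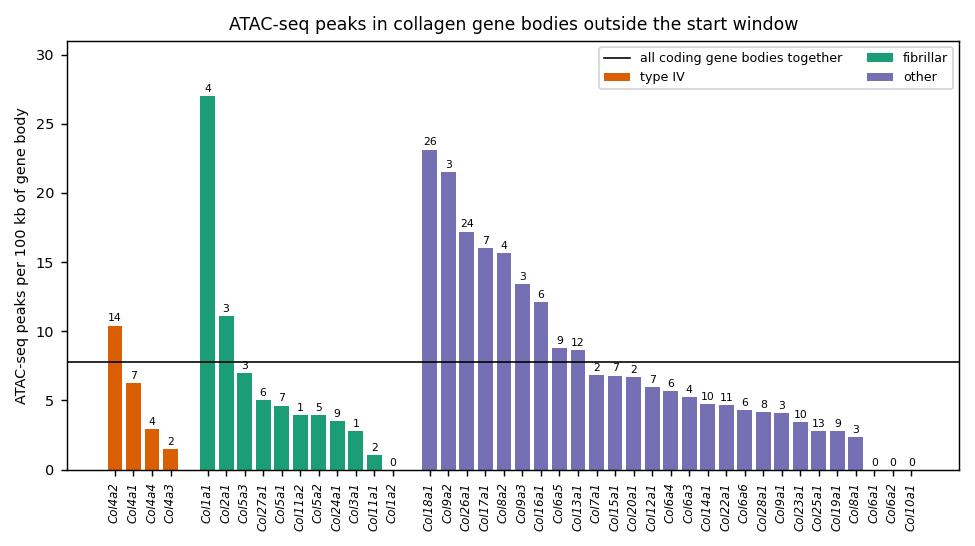
ATAC-seq peaks per 100 Kb of gene body outside the start window, 1 bar for each collagen gene, with the number of peaks above each bar. The line is the value of all coding gene bodies together (7.81). Col1a1 is highest with 4 peaks in a short body, Col18a1 and Col26a1 stand out in number, and 4 members are at 0.

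The members were compared with other genes at a like CpG content, measured as the observed over expected CpG ratio within 500 bp of the start. Its median was 0.4347 over the members and 0.5684 over all coding genes, and 0.4804 against 0.7114 over the marked genes of each. Unmarked members had a median of 0.2617. The share of marked members rose with the ratio, from 0 of 4 below 0.2 over 8 of 14 from 0.2 to 0.4 and 11 of 12 from 0.4 to 0.6 to all 10 from 0.6 to 0.8 and both at 0.8 or above. In all coding genes it was 8.34%, 39.7%, 90.8%, 98.7% and 99.7% in the same classes, and the members had 57.1% from 0.2 to 0.4 and 91.7% from 0.4 to 0.6. With 2 to 14 members in a class, these counts are coarse. The unmarked member from 0.4 to 0.6 is Col25a1, whose ratio was taken at a noncoding start and whose coding start is marked.

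Peak strength, in contrast, was lower than at other genes of the same CpG class. Median fold enrichments of marked members were 9.7, 13.14, 19.26 and 31.87 in the upper 4 classes, against 11.26, 20.98, 31.55 and 39.25 in all coding genes. Below the median of its own class lay 27 of 31 members, among them all 4 type IV genes. The 4 exceptions were Col18a1, Col1a1, Col1a2 and Col5a2. The latter 3 are fibrillar genes with ratios of 0.300, 0.211 and 0.331. The other type V genes, Col5a1 (28.14 against a class median of 39.25) and Col5a3 (5.08 against 20.98), lay below the median of their class. Within the members fold enrichment followed the CpG ratio, with a Spearman's rho of 0.679 over the 29 distinct peaks, against 0.581 over all marked coding genes. These points are genes of 1 peak list, not replicates, and the coefficients are given as a description.

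**Figure D3:**
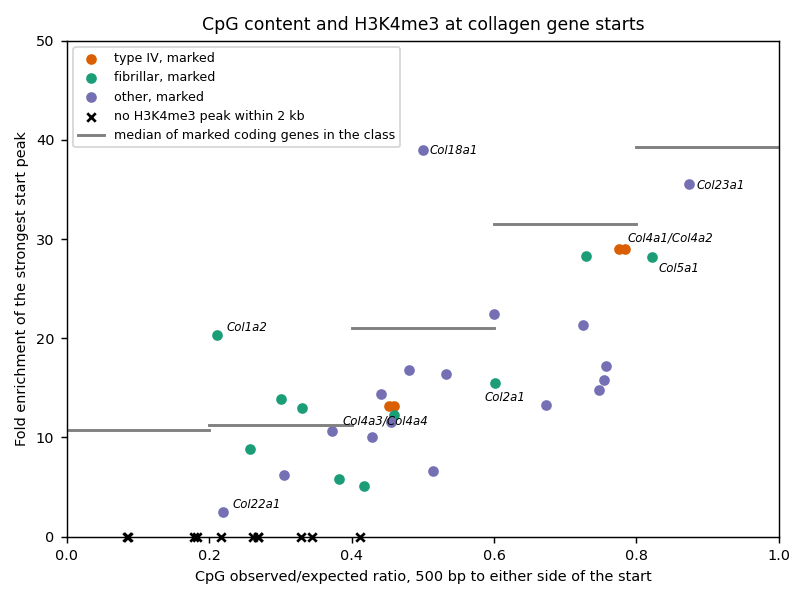
CpG observed over expected ratio within 500 bp of the start (x axis) against the fold enrichment of the strongest start peak (y axis) for the 31 marked collagen genes, colored by group. Crosses at 0 are the 11 members without an H3K4me3 peak in the window, and gray lines are the medians of all marked coding genes in 5 classes of the ratio. Of the 31 points, 27 lie below the line of their class.

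Short promoter motifs were counted in the RefSeq promoters, from 250 bases before to 50 bases after the start and on both strands. Of the members, 33 had an entry, with 36 entries in all, and 9 had no entry. The GC box, searched as GGGCGG, was present in 58.3% of the 36 entries and in 48.3% of all 19174 promoters. It was present in 18 of 24 entries of marked members and in 3 of 12 of unmarked ones, and its letters contain a CpG. All promoters were not split in this way, so the contrast cannot be called particular to collagen genes. Col25a1, counted here as unmarked, is marked at its coding start. The CCAAT box, searched as CCAAT, was present in 33.3% against 37.5% of all, and its count was 8 of 24 in marked and 4 of 12 in unmarked members. The TATA box, searched as TATAAA, was present in 13.9% against 12.1% of all, in the entries of Col3a1, Col10a1, Col11a2, Col13a1 and Col17a1. Of these 5 genes, 3 were unmarked at their start, among them Col10a1, whose promoter is printed above. None of the 3 motifs contains another, and a match describes the letters only.

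The genes that make collagen into a working protein were marked at most of their starts. The lists follow the path of the chain through the cell, and each is given beside the 67.7% of marked coding genes. All 18 genes of chain modification and folding had H3K4me3, with a median fold enrichment of 34.35 (19.37 to 46.06). They include the prolyl hydroxylase subunits P4ha1 (35.4) and P4hb (38.0), the lysyl hydroxylase Plod3 (43.8) and the collagen chaperone Serpinh1 (25.6). Every one of them had a stronger start peak than the median marked collagen gene. That collagen median lies at percentile 14.93 of marked coding genes, so most marked coding genes exceed it. The folding median of 34.35 stands beside 30.88 over all marked coding genes. Of the 4 export genes 3 were marked, Mia3 with 48.9, and Mia2 was open only.

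Trimming and cross-linking genes were marked at 11 of 13 starts with a median of 26.66. The procollagen proteinase Bmp1 had 31.4 and the cross-linking enzyme Lox 15.9, while Pcolce and Loxl2 were open without H3K4me3. Collagen receptors were marked at 6 of 7 starts with a median of 15.95 and a wide range. The integrin chain Itgb1, which pairs with many α chains, had 51.1, and Ddr2, a receptor tyrosine kinase for fibrillar collagen, 2.26. Basement membrane partners were marked at 13 of 16 starts with a median of 30.52. Of the laminins of the early embryo, Lamc1 had 59.5, Lama1 37.2, Lama5 40.4 and Lamb1 30.5, and the perlecan gene Hspg2 had 41.1. Lama2, Lamb3 and Nid1 had no H3K4me3 peak. In all, 51 of the 58 genes of the lists were marked and 57 were open.

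**Figure D4:**
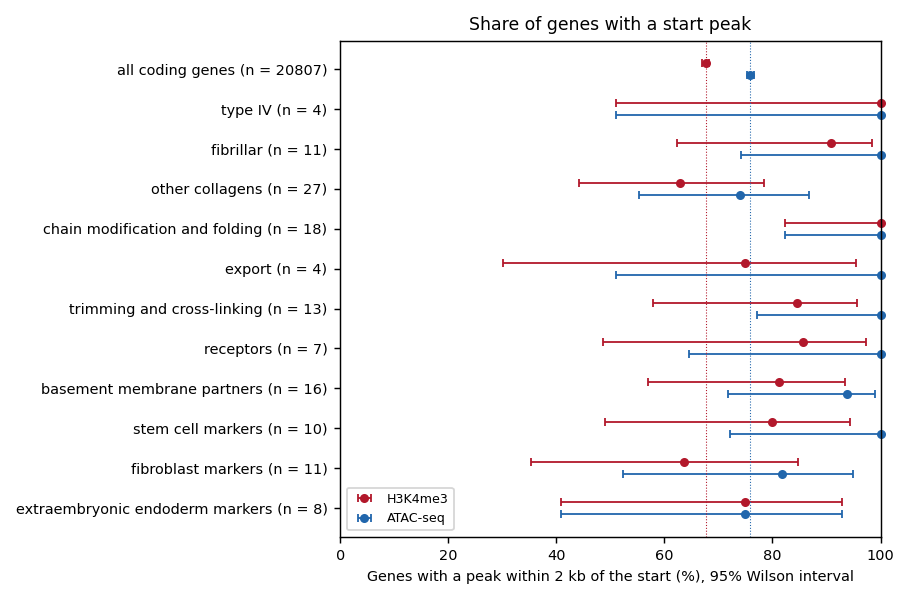
Share of genes with an H3K4me3 peak (red) or an ATAC-seq peak (blue) within 2 Kb of the start, with 95% Wilson intervals that cover counting error only. The intervals treat genes that share a peak, such as the type IV pairs, as separate. Dotted lines are the shares of all coding genes (67.7% and 75.9%). All 4 type IV genes and all 18 folding genes had both kinds of peak, whereas the other collagen types lie near the lines.

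Markers of cell types that a culture could hold were read in the same way, beside the 67.7% of all coding genes that were marked and the 75.9% that were open. Of 10 stem cell markers 8 had H3K4me3 (median fold enrichment 26.45, median width 5160 bp) and all 10 were open, among them Pou5f1, Sox2 and Nanog, while Esrrb and Fgf4 had no H3K4me3 peak at their annotated start. Of 11 fibroblast markers, chosen for the feeder cells, 7 were marked (median 17.0, from 3.386 at Dcn to 28.16 at Twist1) and Lum, Postn, Fap and S100a4 were not, while 9 of 11 were open. These fibroblast shares, 63.6% and 81.8%, were near those of all coding genes. Of 8 markers of extraembryonic endoderm, which makes basement membrane in the embryo, 6 were marked (median 19.71), and Dab2 and Sparc were not, while 6 of 8 were open. Beside these stand the median of 14.33 over the marked collagen genes and 13.43 over the fibrillar ones. The part of other cells in the collagen peaks was not tested.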

How the data were processed

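H3K4me3 ChIP-seq and ATAC-seq of F123 cells, 2 biological replicates each, were analyzed as 1 replicated peak list per assay. PLAC-seq and input samples were not used here. For ATAC-seq, the authors mapped reads to mm10 (bowtie 1.1.2), cleaned them with samtools, moved read ends by 4 bp, called peaks (MACS2 2.1.1.20160309), and used bedtools 2.27.1 to retain pooled peaks that each replicate also had. The deposited list holds positions only. The H3K4me3 list came from the ENCODE histone ChIP-seq pipeline at default parameters. Its aligner and threshold are not given in the sources used here. The deposited columns hold a fold enrichment, that is a ratio over the peak caller's background, the summit, and −log10 values of p and q. A replicated list keeps only peaks of both replicates, so that weak peaks may be missing. The authors called ATAC-seq peaks at a p-value cutoff, not a q-value cutoff, so weak peaks may also be present in that list. Depth is unknown, and its precision cannot be given.

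Genes and starts were the GENCODE M21 gene records, and peaks were counted when they shared at least 1 bp with the 2 Kb window to either side of the start or with the rest of the gene. A body peak is one that does not touch the window. No test was made, since neither list has values per replicate. Overlaps were checked with bedtools 2.31.1, where 0 of 20807 genes differed, and on simulated data. Repeated symbols (27) were kept as separate genes. CpG ratios were taken from the GRCm38.p6 genome. Scripts ran under Python 3.11.15 with scipy 1.17.1, pandas 2.3.3, matplotlib 3.10.9 and numpy 2.4.6. The members, gene lists and alternatives were chosen with earlier results of these data known. Named were all type IV and fibrillar members, the 3 strongest and 3 weakest start peaks of the other types, every member with an H3K4me3 body peak, the 3 with the most ATAC-seq body peaks, and genes of the lists. Members singled out for another reason, such as those without peaks, were chosen after their values were seen.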

Additional observations from a re-analysis of the deposited data

How the results depend on the processing

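Each of the 12 counts was taken again under the alternatives that apply to it, out of 6 in all, which gave 62 values. They were windows of 1 Kb and 5 Kb, any start of a coding transcript, the midpoint of a peak, only H3K4me3 peaks whose −log10 q reached 5, and only ATAC-seq peaks of 261 bp or more (50% of the list). Of these values, 60 stayed within 1.5 times the main count. With the 5 Kb window the members without either kind of peak fell from 7 to 2, as Col6a3, Col6a4, Col9a1, Col17a1 and Col28a1 gained an ATAC-seq peak, and Col3a1 gained H3K4me3. ATAC-seq was then found at 82.8% of all coding genes. When narrower ATAC-seq peaks were left out, the body peaks fell from 263 to 114, and Col3a1 and Col20a1 lost their start peak. That list holds fewer peaks by construction. Any coding start added Col25a1 to the marked and to the open genes, and the 1 Kb window took the ATAC-seq peak of Col3a1.

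No paired analysis was possible because each list is 1 set of peaks for both replicates, and for the same reason no replicate was left out in turn. Depth is unknown, so the absence of a peak says only that none was called.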

Other observations

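The remaining type IV pair, Col4a5 and Col4a6, lies on chromosome X and was not among the 42 members. Its starts, at 141475385 on the plus strand and 141474076 on the minus strand, are further apart than those of the autosomal pairs. Each gene had 2 H3K4me3 and 2 ATAC-seq peaks within 2 Kb of its start, where the autosomal type IV genes had 1 of each. Both had the same strongest H3K4me3 peak, from 141474951 to 141476199, 1249 bp wide. Its fold enrichment was 14.5 and its −log10 q 81.8. This peak covered the start of Col4a5 and lay upstream of that of Col4a6 without covering it, unlike the shared peaks of the autosomal pairs, which cover both starts. Its values stand beside those of the Col4a3/Col4a4 peak (13.14 and 80.8, over 1189 bp), whose chains assemble with that of Col4a5 in the kidney glomerulus. The bodies held 2 ATAC-seq peaks in Col4a5 and 7 in Col4a6, and neither held an H3K4me3 peak outside the window.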
